A study of Mus musculus with 15 samples.

Results

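The phase II conjugating enzymes described here are 51 mouse genes: 14 UDP-glucuronosyltransferases (Ugt), 17 sulfotransferases (Sult) and 20 glutathione S-transferases (Gst). They are the genes on the array whose names begin with Ugt1a, Ugt2a, Ugt2b, Ugt3a, Sult or Gst followed by the class letter a, k, m, o, p, t or z and a number, out of 34797 distinct gene names. The 51 genes had 77 probes, and the probe with the highest mean signal stood for each gene. Genes were taken as measured when the probe stood well above background on 3 or more of the 15 arrays, which 48 members did (14 Ugt, 15 Sult and 19 Gst). Sult1c1, Sult3a1 and Gstt4 were not.

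Liver RNA of 15 C57BL/6J pups on postnatal day 1 was measured on 1-colour Agilent arrays, 1 array per pup. The KO pups had inherited from the mother a chromosome that lacks the miR-379/miR-410 cluster, a microRNA cluster of an imprinted domain, and they were set beside wild-type littermates, all born naturally. By blood glucose the study divided them into a hypoglycaemic group of 7 pups (19.9 ± 9.34 mg/dl, SD) and a normoglycaemic group of 3 pups (48 ± 6.93 mg/dl), which the design text calls severely and mildly hypoglycaemic. The 5 wild-type pups had 58.6 ± 9.56 mg/dl. A level is given as log2 of the processed signal relative to the array's own 75th percentile, so that 0 is that percentile; levels of different probes are not compared.

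Between 57.9% and 76.2% of the probes of an array were well above background, 0 non-control spots were saturated, and the 75th percentile of the signal lay between 569.6 and 783. Mirg, a transcript of the deleted region, read −2.78 to −0.99 in the other 9 KO libraries and 1.12 to 1.84 in the wild-type libraries, but 0.89 in the library labelled hypoglycaemic KO replicate 2. By Mirg that library goes against its label, although its level was below all wild-type libraries. Its blood glucose (16 mg/dl) and its level of the transcription factor Tbx3 (0.50) lay within the hypoglycaemic KO range. Tbx3 read 0.40 to 1.17 in that group, 1.36 to 1.71 in normoglycaemic KO and 1.49 to 1.93 in wild-type libraries. The genotype of the library was not settled, and results are given with and without it. Hepatocyte markers were present in every group (median difference of the list −0.042 between hypoglycaemic KO and wild-type livers). The mean centred level of 16 measured pancreas acinar markers ranged from −2.35 to 3.68 in hypoglycaemic KO, −1.98 to 6.69 in normoglycaemic KO and −2.15 to 3.62 in wild-type libraries, highest in hypoglycaemic KO replicate 3, normoglycaemic KO replicate 2 and wild-type replicate 2. Its part in the results was not tested beyond leaving those 3 libraries out.

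Conjugation makes drugs, steroids, bilirubin, bile acids and reactive products of metabolism more soluble and prepares them for export. The Ugt enzymes add glucuronic acid from UDP-glucuronic acid, the Sult enzymes add sulfate from the donor PAPS, and the Gst enzymes add glutathione. In liver all 3 families work mostly in hepatocytes, and many of their genes come on around and after birth.

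The probes behind the main results are shown by the first 30 of their 60 bases, since the level of each gene was read from a single probe; the coordinates are those of the whole probe on mm9, as the scanner files give them. Ugt2b34 was read at chr5:87318849-87318908 (minus strand), Sult1c2 at chr17:53969205-53969264 (minus), Sult1e1 at chr5:88005187-88005246 (minus), Gsta2 at chr9:78178856-78178915 (minus), Gstm6 at chr3:107741766-107741825 (minus) and Gstt1 at chr10:75246560-75246619 (minus).
Ugt2b34: gtgtatgtatgtgattcatgtcccttttta
Sult1c2: cctgaaagcaaactgtaaaggccaaagatt
Sult1e1: aatggagctctgagccacttccttgtgtct
Gsta2: gccacagatactggcctctaattgtttgca
Gstm6: ccatctccagagtgggaaggcccagtcttg
Gstt1: actataatcactactttccccttgagtctg

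Some members are near copies, and their probes resemble each other. The probes of Sult2a1 (chr7:14381602-14381661) and Sult2a2 (chr7:14364926-14364985) share 54 of 59 aligned bases, and those of Sult2a1 and Sult2a4 (chr7:14495026-14495085) share 51 of 54. The aligned 30-base stretches below show this; capitals mark bases that differ from Sult2a1.
Sult2a1: ttgttgtgtatcttgaatacctagatgtgg
Sult2a2: ttgttCtAtatcttgaatacctGAatAtgg
Sult2a4: ttgttCtgtatcttgaatacctagatgtgg
The probes of Ugt2b37 (chr5:87669707-87669766) and Ugt2b5 (chr5:87554155-87554214) share 46 of 55 bases. Capitals mark where Ugt2b37 differs from Ugt2b5 in the aligned 30-base stretch with the most differing bases.
Ugt2b5: tatttatgaaccaccttctaaacacttgac
Ugt2b37: AatttatgaGccaccttctaaacactGATT
A signal of 1 of these genes may include its neighbour's transcript, so that the Sult2a1, Sult2a2 and Sult2a4 values, and those of Ugt2b37 and Ugt2b5, are not independent readings.

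In hypoglycaemic KO livers the Ugt and Gst genes lay mostly below the wild-type level and the Sult genes did not, but no single member passed the test. Of the 48 measured members, 0 were called in limma (p adjusted by Benjamini-Hochberg over all 27556 genes tested, threshold 0.05), where 0.0181% of all genes were called. At an unadjusted p under 0.05, 18 members were lower (8 Ugt, 1 Sult, 9 Gst) against 8.93% of all genes, and 0 were higher against 9.94%. The fitted difference was below 0 for 12 of 14 Ugt, 6 of 15 Sult and 16 of 19 Gst genes, against 47.2% of all genes. The median log2 difference was −0.90 for Ugt, 0.094 for Sult and −0.29 for Gst, beside 0.016 for all genes. The Ugt median falls in a gap between the 7 Ugt2b genes (−1.56 to −1.10) and the other Ugt genes (−0.71 to 0.22), so no gene had that value. The arrays lay on 2 slides, and the Ugt, Sult and Gst medians were −0.73, 0.025 and −0.34 within slide 1, against −1.28, 0.050 and −0.39 within slide 2. In whole tissue, fewer cells of a type and less RNA per cell cannot be told apart.

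Without hypoglycaemic KO replicate 2, 1 member was called (Ugt1a6b, lower, against 0.403% of all genes), 20 members were lower at an unadjusted p under 0.05 against 8.84%, and the medians were −1.08 for Ugt, 0.093 for Sult and −0.35 for Gst. Without the 3 libraries richest in pancreas markers, an alternative chosen after seeing the data, 0 members were called by limma, 12 were lower at an unadjusted p under 0.05 against 6.09% of all genes, and the medians were −0.74 for Ugt, 0.11 for Sult and −0.25 for Gst. With arrays weighted by their quality, 4 members passed the test and were lower (Ugt2b34, Sult1c2, Gsta2 and Gstm6), against 1.45% of all genes.

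**Figure D1:**
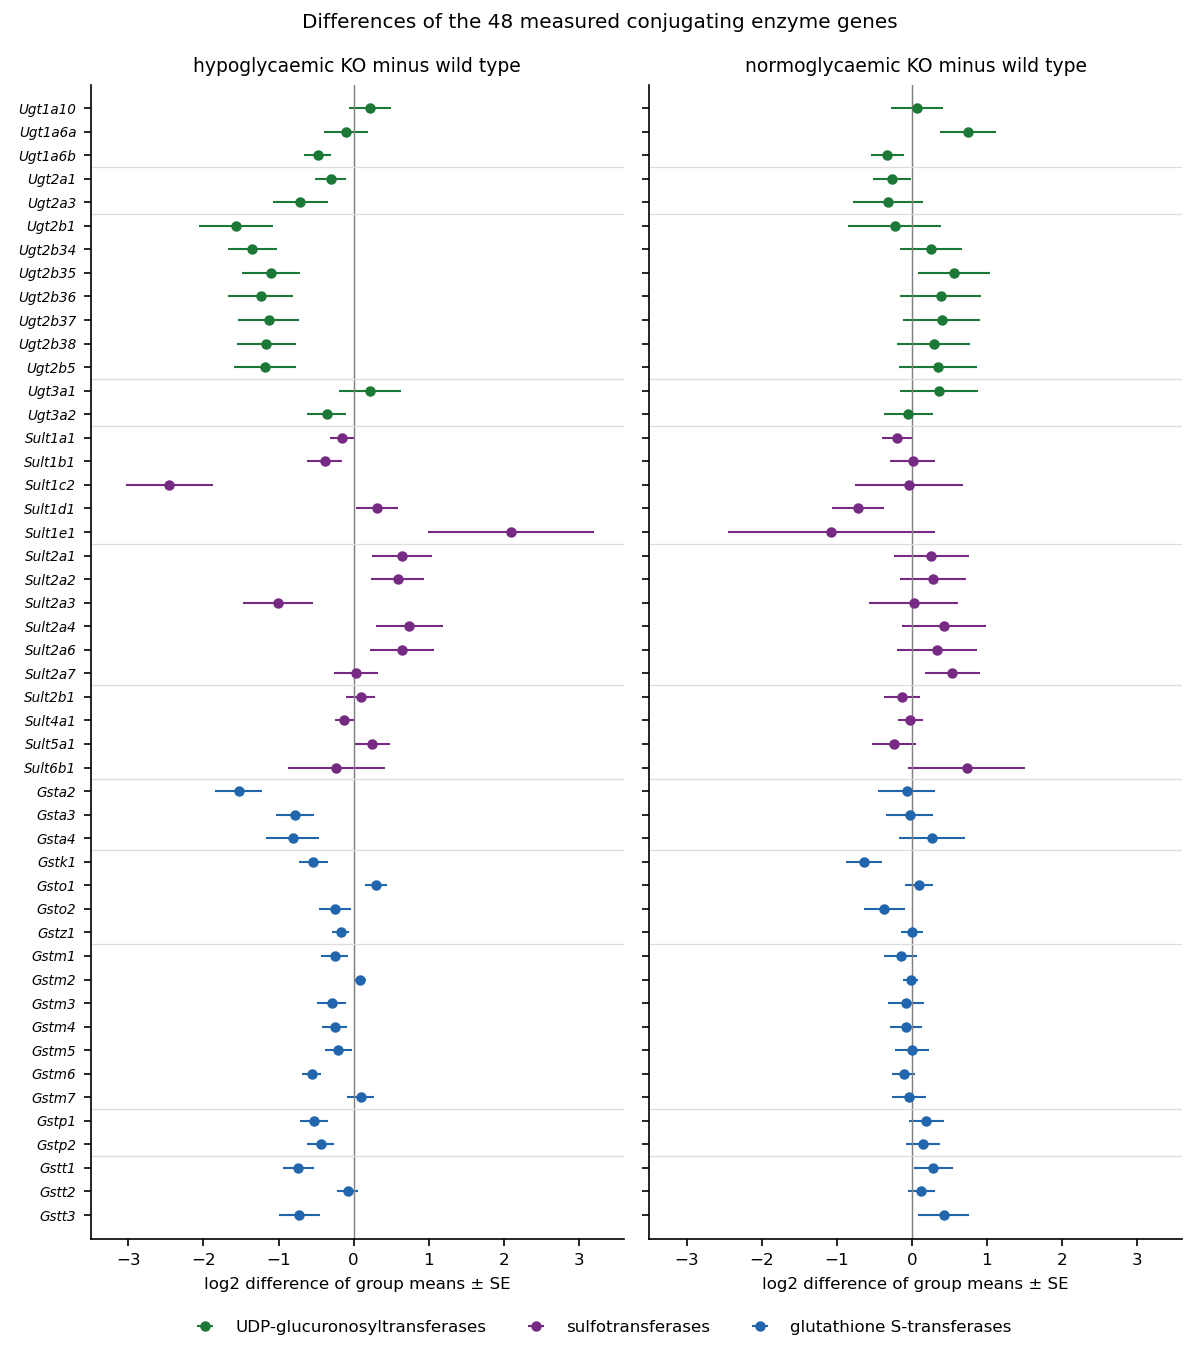
Log2 difference of group means ± SE (x axis) for each of the 48 measured members (y axis), hypoglycaemic KO minus wild type on the left and normoglycaemic KO minus wild type on the right; colours mark the 3 families and grey lines part the classes. On the left the 7 Ugt2b genes lie between −1.56 and −1.10 and Sult1c2 at −2.45, while on the right the Ugt2b genes lie between −0.23 and 0.56.

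Normoglycaemic KO livers were close to wild type for most members. With 3 against 5 libraries, 0 of 48 members were called by limma, as were 0% of all genes. At an unadjusted p under 0.05, 1 member was lower (Gstk1) against 1.67% of all genes, and 0 were higher against 3.15%. The median log2 difference was 0.27 for Ugt, 0.011 for Sult and −0.013 for Gst, beside 0.014 for all genes. The fitted difference was below 0 for 5 of 14 Ugt, 7 of 15 Sult and 11 of 19 Gst genes, against 46.6% of all genes. The comparison shares its wild-type libraries with the preceding one. On slide 1 alone the Ugt, Sult and Gst medians were −0.020, −0.35 and −0.030. On slide 2 alone, which holds 1 normoglycaemic KO library, the Ugt median was 0.50, the Sult median 0.20 and the Gst median −0.023.

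The KO groups, which share the deletion and were divided by glucose, were also set against each other. By their Ddx3y levels, the sexes were unevenly spread over these groups as well. Hypoglycaemic against normoglycaemic KO livers gave 0 called members in limma against 0.0544% of all genes. At an unadjusted p under 0.05, 17 members were lower (8 Ugt, 1 Sult, 8 Gst) against 10.1% of all genes, and 2 were higher (Sult1d1 and Sult1e1) against 9.36%. For 12 members every hypoglycaemic KO library lay below every normoglycaemic KO library, against 3.99% of all genes: Ugt2b5, Ugt2b34, Ugt2b35, Ugt2b36, Ugt2b37, Ugt2b38, Sult1c2, Gsta2, Gstm6, Gstp1, Gstp2 and Gstt1. Gsta2 is in this count over 6 hypoglycaemic KO libraries only: the spot of replicate 3 was marked as uneven and left out. Kept, it read 1.57, above all normoglycaemic KO libraries. The family medians were −1.09 for Ugt, 0.22 for Sult and −0.20 for Gst, beside −0.0091 for all genes. The fitted difference was below 0 for 13 of 14 Ugt, 6 of 15 Sult and 14 of 19 Gst genes, against 51.3% of all genes. Without hypoglycaemic KO replicate 2, the medians were −1.23, 0.22 and −0.24. The Ugt, Sult and Gst medians were −0.82, 0.31 and −0.16 on slide 1 and −1.74, 0.23 and −0.33 on slide 2. With weighted arrays 13 members passed the test, 12 of them lower against 3.81% of all genes and Sult1d1 higher against 3.41%. With both KO groups averaged against wild type, 0 members were called by limma against 0.00726% of all genes, and 5 members were lower at an unadjusted p under 0.05 (Ugt1a6b, Sult1c2, Gsta2, Gstk1 and Gstm6) against 2.99%.

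The glucuronosyltransferases were led by the Ugt2b genes, which lie together on chromosome 5 and encode enzymes that act on steroids and many drugs. All 7 Ugt2b genes read lower in hypoglycaemic KO livers than in wild type, with a median log2 difference of −1.18 and adjusted p between 0.0869 and 0.165. In normoglycaemic KO against wild-type livers their median was 0.35. Between the KO groups it was −1.53, and the adjusted p ranged from 0.0858 to 0.23.

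Ugt2b34 had a lowest, median and highest level of 2.97, 4.33 and 4.78 in hypoglycaemic KO livers, 5.39, 5.92 and 5.63 in normoglycaemic KO livers, and 4.92, 5.90, 5.09, 5.16 and 5.88 in wild-type livers. Every hypoglycaemic KO library was below every other library, which is 1 of 2 members without overlap against wild type, beside 0.726% of all genes. The other member, Gsta2, is counted without its marked spot. The difference from wild type was −1.35 ± 0.33 (SE), a 2.55-fold lower signal (adjusted p = 0.0869, limma), and from normoglycaemic KO −1.61 ± 0.39 (adjusted p = 0.0858).

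Ugt2b38 ranged from 1.41 over a median of 3.05 to 3.93 in hypoglycaemic KO livers, and read 4.15, 4.50 and 4.59 in normoglycaemic KO and 3.43, 5.13, 3.86, 3.62 and 4.56 in wild-type livers. The difference was −1.16 ± 0.39 (adjusted p = 0.148), and the lowest wild-type libraries overlapped the highest hypoglycaemic KO library. Ugt2b35 read −0.90, 1.10 and 1.67 at its lowest, median and highest in hypoglycaemic KO livers, 2.16, 2.68 and 2.30 in normoglycaemic KO livers, and 1.35, 2.44, 1.56, 1.37 and 2.36 in wild-type livers. Hypoglycaemic KO replicate 7, at 29 mg/dl, was the lowest library for both genes. A second Ugt2b35 probe gave −1.15 against −1.10 for the probe used.

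Ugt2b1 stood apart from the other Ugt2b genes in 1 library. Its levels were −3.38, −1.96 and −0.020 at the lowest, median and highest in hypoglycaemic KO livers, −1.23, −0.31 and −0.08 in normoglycaemic KO livers, and −0.98, 1.12, −0.82, −0.82 and −0.06 in wild-type livers. The highest hypoglycaemic KO value belongs to the library labelled hypoglycaemic KO replicate 2, whose level was above all wild-type libraries but replicate 2. The difference was −1.56 ± 0.50 (adjusted p = 0.131), and −1.87 without that library.

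**Figure D2:**
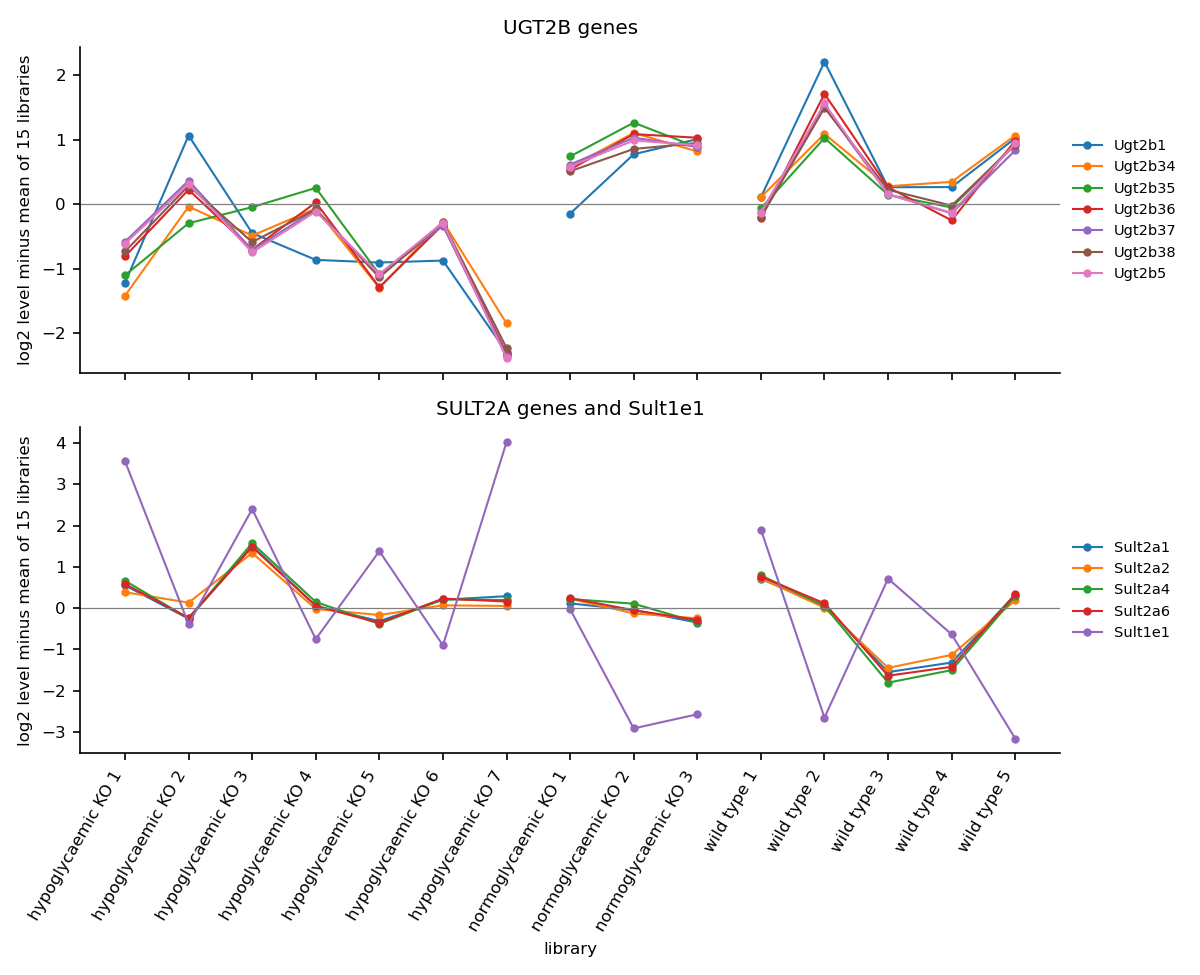
Log2 level minus the mean over the 15 libraries (y axis) for each library (x axis); lines join libraries of a group. The 7 Ugt2b genes (top) move together and are lowest in hypoglycaemic KO replicate 7, and the Sult2a1, Sult2a2, Sult2a4 and Sult2a6 lines (bottom) nearly coincide while Sult1e1 follows a course of its own.

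The other 7 glucuronosyltransferases lay between −0.71 and 0.22 in hypoglycaemic KO against wild-type livers, and 1 of them, Ugt1a6b, had an unadjusted p under 0.05. The chosen probe of Ugt1a6b (chr1:90115493-90115552), a gene whose enzyme conjugates small phenols, lies at the 3′ end that the transcripts of the Ugt1a locus have in common, and may read several of them. Its levels were 6.00, 6.45 and 7.30 at the lowest, median and highest in hypoglycaemic KO livers, 6.75, 6.64 and 6.53 in normoglycaemic KO livers, and 7.16, 7.13, 6.74, 6.76 and 7.04 in wild-type livers. The difference was −0.48 ± 0.18 (adjusted p = 0.167), and −0.62 without the library labelled hypoglycaemic KO replicate 2, the highest of all 15, which passed the test (adjusted p = 0.0387). A second probe at chr1:90004249-90004308 gave −0.46 for hypoglycaemic KO against wild type, but 0.44 for normoglycaemic KO against wild type where the chosen probe gave −0.33.

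The probes of Ugt1a6a and Ugt2a1 were near background, well above it in 6 of 7, 3 of 3 and 3 of 5 hypoglycaemic KO, normoglycaemic KO and wild-type libraries. The Ugt1a6a probe (chr1:90116514-90116573) lies beyond the chosen Ugt1a6b probe on the plus strand. Its low signal may not be the level of Ugt1a6a, whose transcripts the bright Ugt1a6b probe may also read. Ugt1a6a read −5.08, −4.19 and −3.59 at the lowest, median and highest in hypoglycaemic KO livers, −3.09, −2.89 and −4.16 in normoglycaemic KO livers, and −3.71, −3.59, −4.02, −4.74 and −4.59 in wild-type livers. Its difference was −0.10 (adjusted p = 0.886) for hypoglycaemic KO and 0.75 (adjusted p = 0.963) for normoglycaemic KO against wild type. Ugt2a1, best known from the olfactory lining, read −5.05, −4.22 and −3.89 in hypoglycaemic KO livers, −4.45, −4.27 and −4.14 in normoglycaemic KO livers, and −3.62, −4.64, −3.76, −4.10 and −3.98 in wild-type livers, with overlapping groups. Of the rest, Ugt1a10, Ugt2a3, Ugt3a1 and Ugt3a2 had differences from −0.71 to 0.22 between hypoglycaemic KO and wild-type livers and adjusted p of 0.323 or more. A second, dimmer probe of Ugt1a10 gave 0.39 where the chosen one gave 0.22.

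The sulfotransferases had no common direction: the 5 measured Sult1 genes spanned −2.45 to 2.10 between hypoglycaemic KO and wild-type livers. Sult1c2, of a class that sulfates phenols and hydroxylated carcinogens, read −3.17, −2.28 and −0.94 at the lowest, median and highest in hypoglycaemic KO livers, −0.22, 0.23 and 0.85 in normoglycaemic KO livers, and −1.53, 2.28, −0.30, 0.29 and 0.88 in wild-type livers. All hypoglycaemic KO libraries lay below all normoglycaemic KO libraries, and wild-type replicate 1 was the only wild-type library within their range. The difference from wild type was −2.45 ± 0.58, a 5.48-fold lower signal (adjusted p = 0.0869), and from normoglycaemic KO −2.41 ± 0.68 (adjusted p = 0.106).

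Sult1e1, the estrogen sulfotransferase, ran the other way but varied widely within every group. It read −1.77, 0.51 and 3.15 at the lowest, median and highest in hypoglycaemic KO livers, −0.90, −3.78 and −3.44 in normoglycaemic KO livers, and 1.03, −3.52, −0.16, −1.51 and −4.03 in wild-type livers. Its SD was 2.07 in hypoglycaemic KO, 1.58 in normoglycaemic KO and 2.16 in wild-type livers, and the difference from wild type was 2.10 ± 1.10 (adjusted p = 0.324). Against normoglycaemic KO it was 3.17 ± 1.30 (adjusted p = 0.204). Its neighbour Sult1d1, which sulfates catecholamines and other amines in the mouse, read 2.72, 3.51 and 4.12 in hypoglycaemic KO livers, 2.74, 1.94 and 2.56 in normoglycaemic KO livers, and 3.89, 2.61, 3.09, 3.07 and 3.00 in wild-type livers. Its difference was 0.32 ± 0.28 from wild type (adjusted p = 0.569) and 1.04 ± 0.33 from normoglycaemic KO (adjusted p = 0.128). A second, dimmer Sult1d1 probe gave 0.088 and 0.88.

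The Sult2a genes, whose enzymes sulfate hydroxysteroids and bile acids, had a median difference of 0.61 between hypoglycaemic KO and wild-type livers, and 0 of 6 reached an unadjusted p under 0.05 in limma. Sult2a4 read 3.27, 3.85 and 5.23 at the lowest, median and highest in hypoglycaemic KO livers, 3.87, 3.76 and 3.31 in normoglycaemic KO livers, and 4.45, 3.70, 1.85, 2.15 and 3.94 in wild-type livers. Sult2a1 read 5.38, 5.90 and 7.20 in hypoglycaemic KO livers, 5.81, 5.65 and 5.34 in normoglycaemic KO livers, and 6.40, 5.75, 4.15, 4.38 and 6.02 in wild-type livers. For both, wild-type replicates 3 and 4 were below all other libraries and the other wild-type libraries lay inside the KO range. The differences were 0.74 ± 0.45 for Sult2a4 (adjusted p = 0.390) and 0.64 ± 0.40 for Sult2a1 (adjusted p = 0.408), and without wild-type replicate 3 they were 0.40 and 0.35.

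Sult2a3 differed from its class, with −6.08, −4.53 and −3.78 at the lowest, median and highest in hypoglycaemic KO livers, −4.25, −3.63 and −3.94 in normoglycaemic KO livers, and −4.68, −2.56, −4.00, −5.14 and −3.44 in wild-type livers. It was well above background in 4 of 7 hypoglycaemic KO, 3 of 3 normoglycaemic KO and 4 of 5 wild-type libraries, the groups overlapped, and the difference was −1.01 ± 0.47 (adjusted p = 0.268). Sult1a1, a phenol sulfotransferase, was bright and even: 6.23, 6.42 and 7.12 in hypoglycaemic KO livers, 6.75, 6.38 and 6.55 in normoglycaemic KO livers, and 7.02, 6.83, 6.58, 6.66 and 6.71 in wild-type livers, a difference of −0.16 ± 0.16 (adjusted p = 0.621). A second Sult1a1 probe gave −0.17. Sult1b1, Sult2a2, Sult2a6, Sult2a7, Sult2b1, Sult4a1, Sult5a1 and Sult6b1 had differences from −0.39 to 0.64, none at an unadjusted p under 0.05 for the chosen probes. Other Sult2a6 probes gave 0.66 and −1.98 (unadjusted p = 0.0331, limma) where the chosen one gave 0.64. The latter probe was dim, well above background on 5 arrays. A second probe of Sult5a1 gave −0.034 where the chosen one gave 0.25. Sult2a7 and Sult6b1 were near background, well above it in 10 and 4 of the 15 libraries, and Sult6b1 has no value in hypoglycaemic KO replicate 1, where its spot was marked as uneven.

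**Figure D3:**
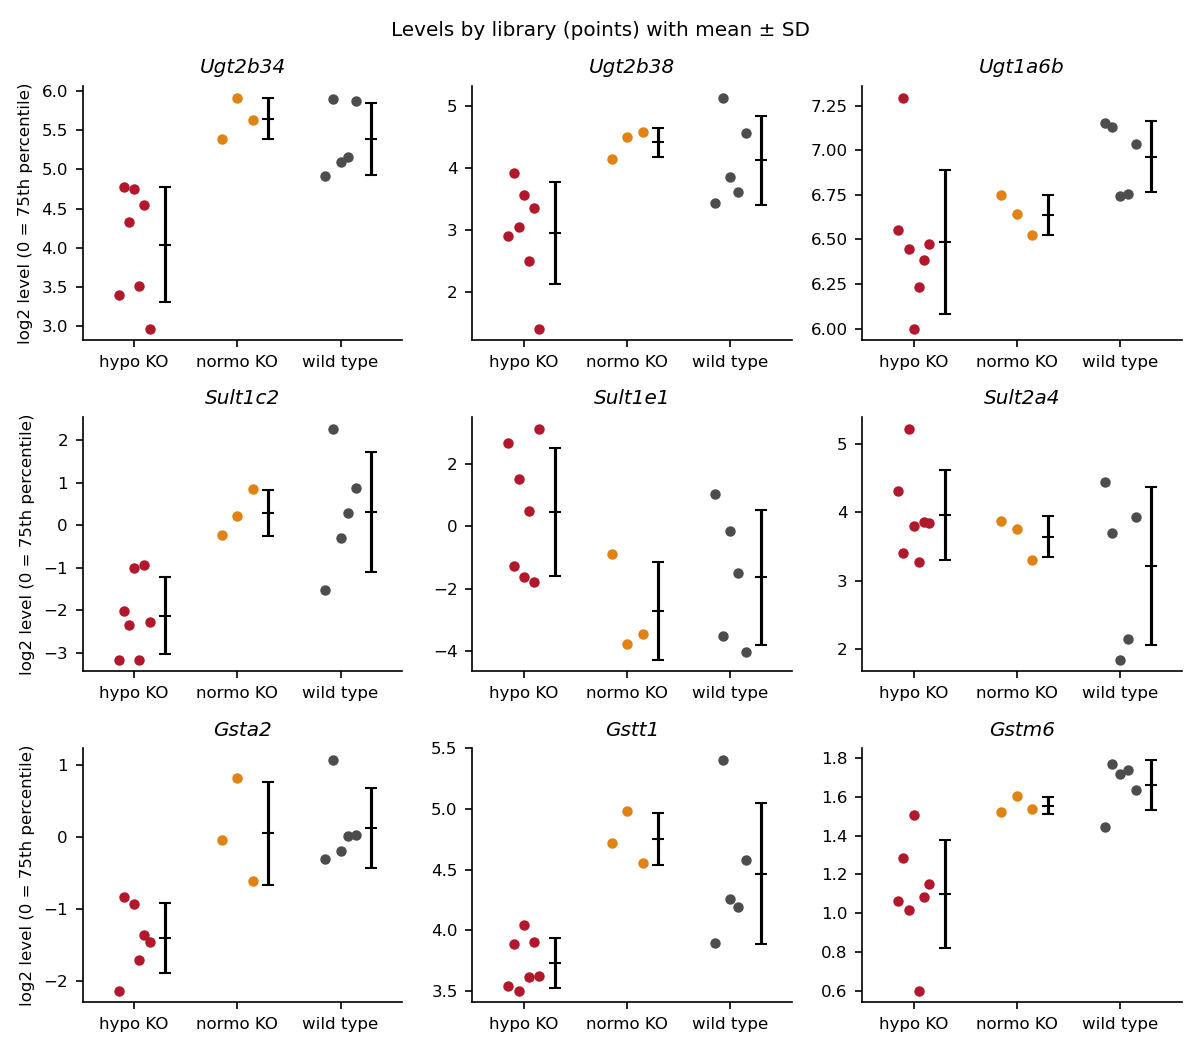
Log2 level relative to the array's 75th percentile (y axis) of 9 members in each library (points) with mean ± SD, by group (x axis). Hypoglycaemic KO libraries lie below all wild-type libraries for Ugt2b34 and Gsta2 and overlap them for the other 7; the Gsta2 panel lacks hypoglycaemic KO replicate 3, and for Ugt1a6b the single high point at 7.30 is hypoglycaemic KO replicate 2.

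The glutathione S-transferases lay lower in hypoglycaemic KO livers in the alpha, pi and theta classes, and less in the mu class. The medians against wild type were −0.81 for 3 alpha, −0.48 for 2 pi, −0.72 for 3 theta, −0.25 for 7 mu and −0.21 for 4 kappa, omega and zeta genes. In normoglycaemic KO against wild-type livers the same medians were −0.026, 0.17, 0.29, −0.073 and −0.18.

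Gsta2, an alpha-class enzyme that detoxifies lipid peroxides, read −2.13, −1.41 and −0.83 at the lowest, median and highest of 6 hypoglycaemic KO libraries, −0.04, 0.82 and −0.60 in normoglycaemic KO livers, and −0.30, 1.08, −0.19, 0.01 and 0.03 in wild-type livers. The spot of hypoglycaemic KO replicate 3 was marked as uneven and was left out of the fit; kept, it read 1.57, above every other library. Without it the 6 libraries lay below all others, and the difference from wild type was −1.53 ± 0.32, a 2.89-fold lower signal (adjusted p = 0.0869). With it the difference was −1.11 (adjusted p = 0.278), and the groups overlapped.

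Gsta3, another alpha-class enzyme and a bright probe, read 5.19, 5.92 and 6.60 at the lowest, median and highest in hypoglycaemic KO livers, 6.40, 7.08 and 6.63 in normoglycaemic KO livers, and 6.49, 7.40, 6.51, 6.33 and 6.92 in wild-type livers. The difference was −0.78 ± 0.25 (adjusted p = 0.133), all 7 hypoglycaemic KO libraries were below the wild-type mean, and a second probe gave −0.81. Gsta4, which conjugates hydroxynonenal, had a difference of −0.81 ± 0.35 (adjusted p = 0.232).

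Gstt1, the theta-class enzyme that acts on small halogenated compounds, read 3.50, 3.63 and 4.04 at the lowest, median and highest in hypoglycaemic KO livers, 4.72, 4.99 and 4.56 in normoglycaemic KO livers, and 3.89, 5.41, 4.25, 4.20 and 4.58 in wild-type livers. Every hypoglycaemic KO library was below all normoglycaemic KO libraries, and wild-type replicate 1 was the only wild-type library in their range. The difference was −0.74 ± 0.21 from wild type (adjusted p = 0.113) and −1.02 ± 0.25 from normoglycaemic KO (adjusted p = 0.0871). A second probe, at chr10:75259864-75259923 and annotated to an Ensembl transcript, gave −0.07, so the probes disagree.

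Gstm6, a mu-class gene, showed a small and even difference. It read 0.60, 1.08 and 1.51 at the lowest, median and highest in hypoglycaemic KO livers, 1.52, 1.60 and 1.54 in normoglycaemic KO livers, and 1.44, 1.77, 1.71, 1.74 and 1.63 in wild-type livers. The difference was −0.56 ± 0.12, a 1.47-fold lower signal (adjusted p = 0.0869), with replicate 4 the only hypoglycaemic KO library inside the wild-type range. Of its other probes, 2 gave −0.46 and −0.54, and a dim one gave −0.21. The other mu genes lay between −0.29 and 0.098, but some of their other probes differed. A second probe of Gstm3 gave −1.79 ± 0.53 where the chosen one gave −0.29, and a second probe of Gstm4 gave −0.58 where the chosen one gave −0.25. Other probes of Gstm2 gave 0.25 and 0.15 where the chosen one gave 0.083. Those of Gstm7 gave −0.022 and −0.29 where the chosen one gave 0.098. The chosen probe of Gstm1 is placed on chromosome 5 in the scanner files, while the gene is on chromosome 3, so that its value may not be that of the gene. A second Gstm1 probe, placed on chromosome 3, gave −0.23 where the chosen one gave −0.25.

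Gstk1, a kappa-class enzyme found in mitochondria and peroxisomes, was the only member at an unadjusted p under 0.05 against wild type in both KO groups, which were compared with the same wild-type libraries. It read 2.13, 2.77 and 3.31 at the lowest, median and highest in hypoglycaemic KO livers, 2.79, 2.42 and 2.75 in normoglycaemic KO livers, and 3.51, 2.95, 3.36, 3.47 and 3.17 in wild-type livers. The normoglycaemic KO libraries lay below all wild-type libraries, as 1.51% of all genes did. The difference was −0.54 ± 0.19 for hypoglycaemic KO (adjusted p = 0.162) and −0.64 ± 0.24 for normoglycaemic KO (adjusted p = 0.963) against wild type.

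Gstz1, the zeta-class enzyme of tyrosine breakdown, was nearly level: 5.83, 6.18 and 6.62 in hypoglycaemic KO livers, 6.30, 6.27 and 6.49 in normoglycaemic KO livers, and 6.32, 6.29, 6.36, 6.36 and 6.44 in wild-type livers, a difference of −0.17 ± 0.12 (adjusted p = 0.442). Gstp1 and Gstp2, the pi-class pair, had differences of −0.52 ± 0.19 (adjusted p = 0.164) and −0.44 ± 0.18 (adjusted p = 0.204), and Gstt3 −0.72 ± 0.28 (adjusted p = 0.180). Gsto1, an omega-class enzyme, lay higher by 0.30 ± 0.15 (unadjusted p = 0.0657).

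Blood glucose was then used as a measure of its own. With the group means in the model, a common slope of the log2 level per 10 mg/dl was fitted over the 15 libraries. Of 48 members, 0 were called by limma, as were 0% of all genes; at an unadjusted p under 0.05, 6 had a positive slope (Ugt3a2, Sult1c2, Gsta2, Gstp1, Gstp2 and Gstt1) against 8.42% of all genes, and 4 a negative one (Ugt2a1, Sult1d1, Sult1e1 and Gstm7) against 9.67%. The median slope was 0.21 for Ugt, −0.018 for Sult and 0.12 for Gst, beside −0.014 for all genes, and it was above 0 for 11 of 14 Ugt, 7 of 15 Sult and 14 of 19 Gst genes, against 44.8% of all genes. Within the 7 hypoglycaemic KO libraries alone the medians were −0.13, −0.20 and 0.11. The smallest adjusted p belonged to Sult1c2 (0.89 ± 0.21 per 10 mg/dl, adjusted p = 0.0722) and Gstt1 (0.32 ± 0.078, adjusted p = 0.0772). Ugt2a1 had a slope of −0.28 ± 0.087 (adjusted p = 0.124). The second Sult1d1 probe gave a slope of −0.11 where the chosen one gave −0.34.

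Several libraries moved these slopes. Without wild-type replicate 2, at 72 mg/dl, the Ugt median slope was 0.039 and the Gstt1 slope 0.20. Without hypoglycaemic KO replicate 4, at 33 mg/dl, the Gst median slope was 0.071, and the Sult median lay between −0.080 and 0.085 as each library was left out in turn. Hypoglycaemic KO replicate 7 had a glucose of 29 mg/dl and the lowest levels of all Ugt2b genes and the highest of Sult1e1 and Sult1d1. Without it, the Ugt median slope was 0.31 and 6 members passed the test: Ugt2b34, Ugt2b35, Sult1c2 and Gstt1 with a positive slope, against 1.77% of all genes, and Sult1d1 and Sult1e1 with a negative one, against 1.89%. With weighted arrays Sult1c2 and Gstt1 passed, both with a positive slope, against 0.911% of all genes. Without hypoglycaemic KO replicate 2, 0 passed in limma against 0.00363% of all genes, with 7 positive and 3 negative at an unadjusted p under 0.05, against 8.38% and 9.74% of all genes.

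Over the 10 KO libraries alone and with no group term, 7 members passed the test. Sult1c2 rose with glucose by 0.79 ± 0.12 per 10 mg/dl (adjusted p = 0.00862, limma), Gsta2 by 0.51 ± 0.090 over 9 libraries (adjusted p = 0.0153), Gstt1 by 0.31 ± 0.042 (adjusted p = 0.00668), Gstp1 by 0.23 ± 0.045 (adjusted p = 0.0186), Gstp2 by 0.19 ± 0.043 (adjusted p = 0.0269) and Gstm6 by 0.16 ± 0.041 (adjusted p = 0.0424). These 6 stand against 4.47% of all genes that rose, and Sult1d1, which fell by −0.36 ± 0.085 per 10 mg/dl (adjusted p = 0.0321), against 4.53% that fell. Ugt2b34 had 0.46 ± 0.13 (adjusted p = 0.0580) and Sult1e1 −1.06 ± 0.34 (adjusted p = 0.0800). The Gsta2 slope leaves out the marked spot of hypoglycaemic KO replicate 3, a pup of 12 mg/dl; with that spot kept it was 0.26 ± 0.22 and did not pass (adjusted p = 0.492, limma). Since the KO groups were formed by glucose, this slope also holds the difference between them.

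The 10 libraries include the one labelled hypoglycaemic KO replicate 2, and the fit without it was chosen after seeing the data. Over the 9 remaining KO libraries, 7 members rose with glucose against 3.81% of all genes (the same 6 and Ugt2b34), and Sult1d1 fell against 3.96%. There Ugt2b34 rose by 0.52 ± 0.13 per 10 mg/dl (adjusted p = 0.0467, limma), Sult1c2 by 0.82 ± 0.13 (adjusted p = 0.0159) and Gstt1 by 0.33 ± 0.042 (adjusted p = 0.0125).

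Over all 15 libraries with no group term, 15 members rose with glucose against 8.07% of all genes: the 7 Ugt2b genes, Sult1c2, Gsta2, Gsta3, Gstm6, Gstp1, Gstp2, Gstt1 and Gstt3. Sult1e1 fell, against 8.81% of all genes. Gsta2 rose by 0.43 ± 0.053, Sult1c2 by 0.71 ± 0.091 and Ugt2b34 by 0.37 ± 0.073 per 10 mg/dl (adjusted p = 0.00176, 0.00176 and 0.00574, limma). With the marked Gsta2 spot kept, the Gsta2 slope was 0.28 ± 0.11 and did not pass (adjusted p = 0.109). Without hypoglycaemic KO replicate 2, 17 members rose against 7.24% of all genes: Ugt1a6b, Ugt2a3 and Gsta4 joined them, and Gstt3 did not pass. Sult1e1 fell there as well, against 8.21%. Here glucose and genotype cannot be told apart, because glucose was lowest in KO pups.

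**Figure D4:**
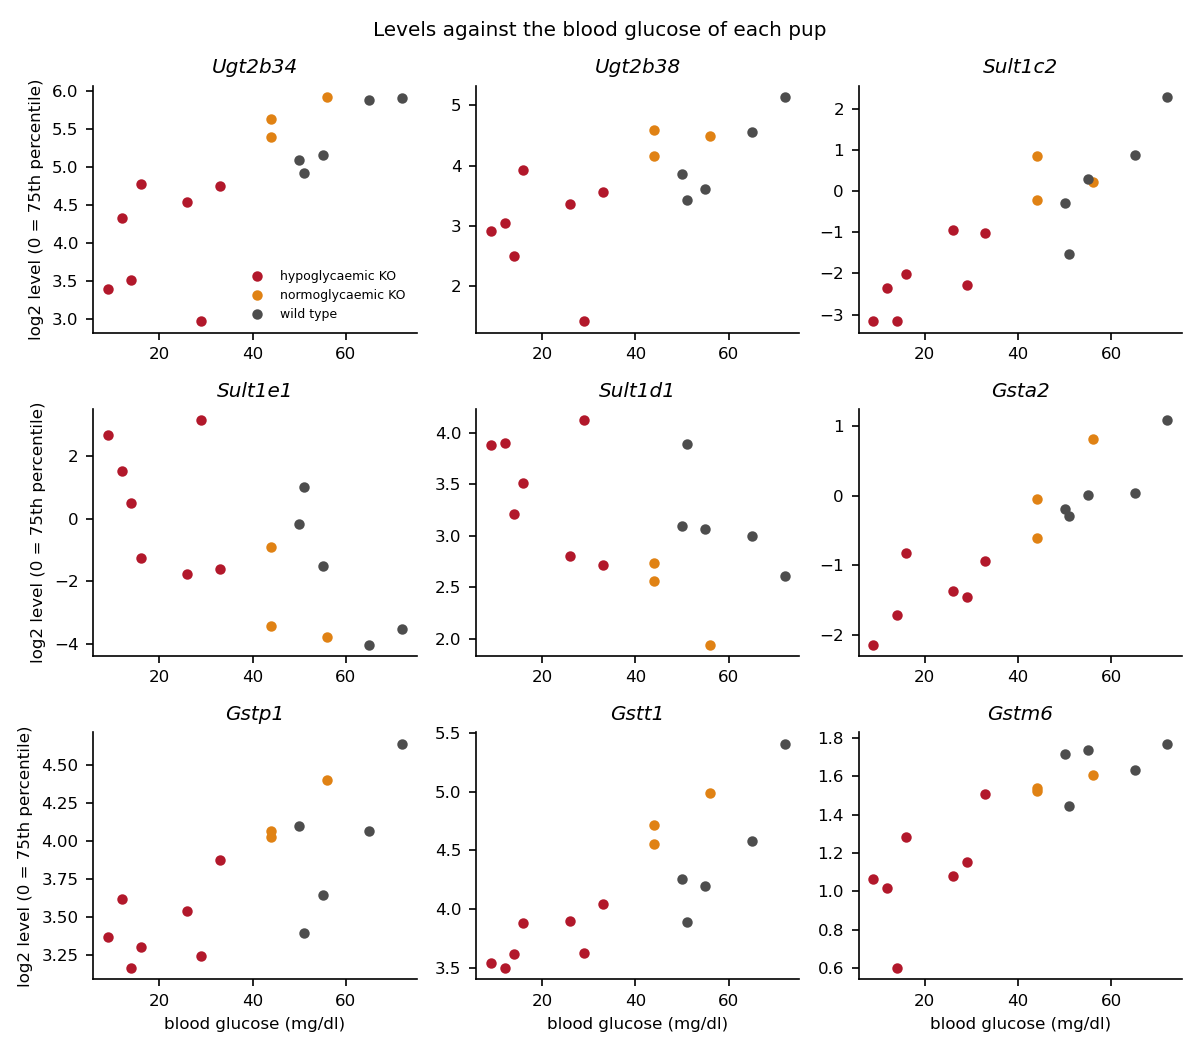
Log2 level relative to the array's 75th percentile (y axis) of 9 members against the pup's blood glucose in mg/dl (x axis), coloured by group. Levels of Sult1c2, Gsta2 and Gstt1 are higher in pups of higher glucose within the KO libraries as well, Sult1d1 and Sult1e1 are lower, and the lowest Ugt2b34 point is hypoglycaemic KO replicate 7 at 29 mg/dl; the Gsta2 panel lacks hypoglycaemic KO replicate 3.

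Members moved together in blocks when the group means were taken out. Over the 15 libraries, the correlation of deviations from the group means was 0.999 for Ugt2b37 and Ugt2b5, 0.993 for Ugt2b5 and Ugt2b38, and 0.937 for Ugt2b34 and Ugt2b35, whose probes are not among the look-alikes. It was 0.998 for Sult2a4 and Sult2a6, 0.983 for Gstp1 and Gstp2 and 0.972 for Gstm3 and Gstm4. These pairs are close paralogs, so that shared hybridisation may add to them. Across families, Gsta4 followed Ugt2b35 with 0.845 and Sult1b1 followed Gstm4 with 0.848.

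Sult1e1 stood opposite to the Ugt2b block. Its correlation was −0.867 with Ugt2b34, the lowest of all pairs, −0.799 with Ugt2b38 and −0.792 with Sult1c2, and 0.843 with Sult1d1. The median correlation was 0.25 over the 91 Ugt pairs, 0.28 over the 105 Sult pairs and 0.22 over the 171 Gst pairs, and 0.12 to 0.24 between families. They describe 15 libraries, in each of which the genes share the array, the signal depth and the RNA preparation.

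**Figure D5:**
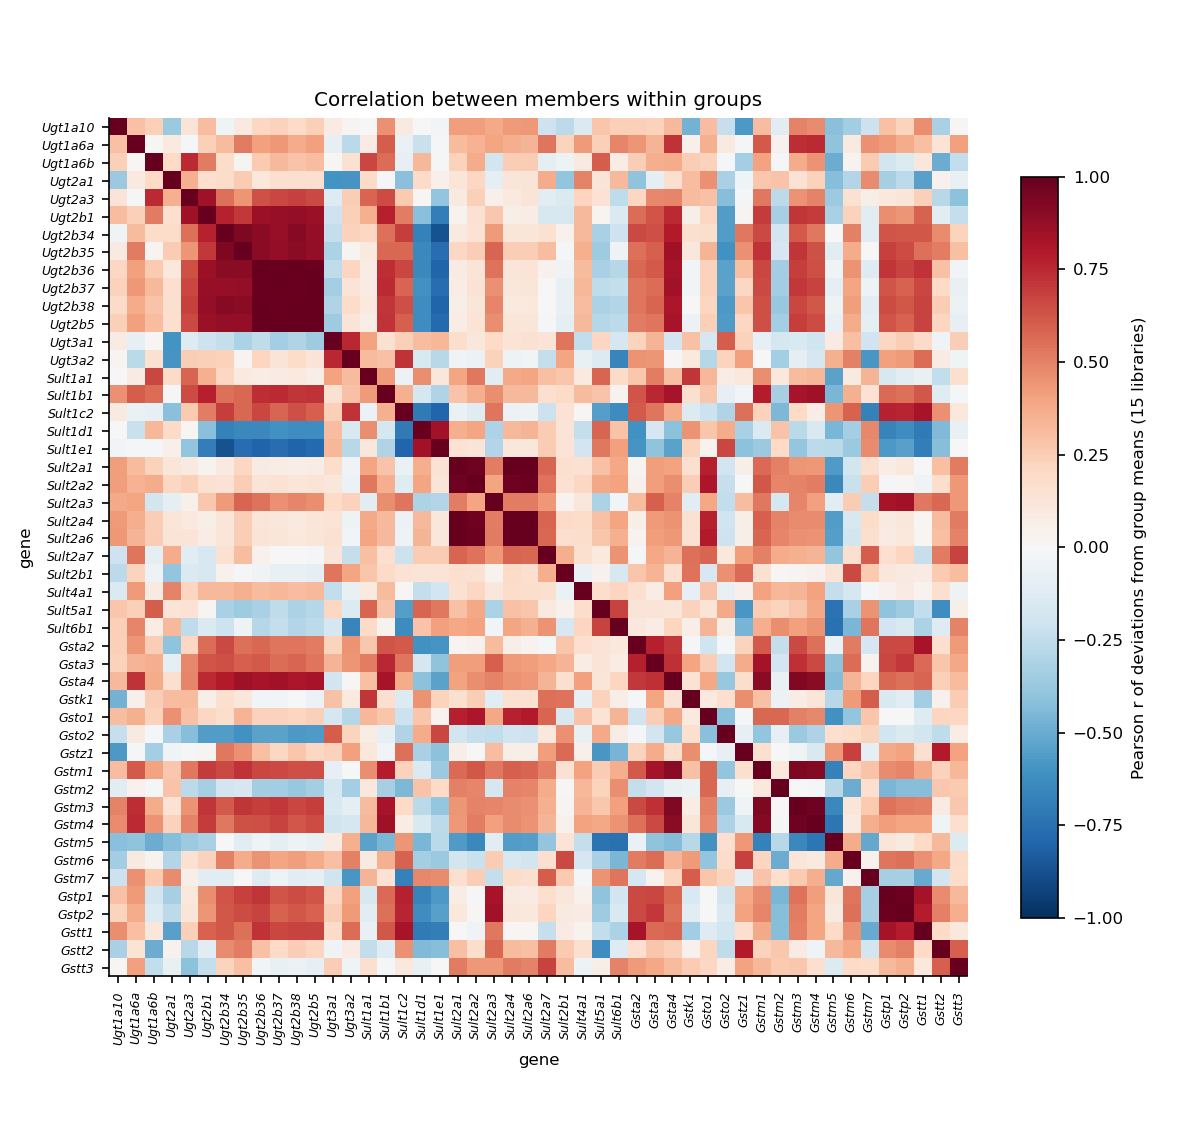
Pearson correlation of deviations from the group means over the 15 libraries for each pair of the 48 measured members (both axes, ordered by class); red is positive and blue negative. Dark red blocks hold the Ugt2b genes and the Sult2a1, Sult2a2, Sult2a4 and Sult2a6 genes, and the Sult1e1 row is blue against the Ugt2b block.

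Since the Ugt2b genes moved together, their promoters were read from the RefSeq table (GRCm38.p6), in the window from 250 bases before to 50 after the start. The nuclear receptor half-site AGGTCA, sought on both strands, was found for 5 of 7 Ugt2b genes and in 16.3% of all 32851 promoters. In 4 of these genes it lay within a like stretch close to the start. The 40-base windows around it, all on chromosome 5, are shown with the half-site in capitals; Ugt2b37 matched Ugt2b5 at 40 of 40 bases, Ugt2b38 at 39, Ugt2b36 at 35 and Ugt2b35 at 9. Ugt2b35 is on the plus strand and the others on the minus strand.
Ugt2b5: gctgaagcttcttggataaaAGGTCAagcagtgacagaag
Ugt2b37: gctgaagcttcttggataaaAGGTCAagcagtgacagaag
Ugt2b38: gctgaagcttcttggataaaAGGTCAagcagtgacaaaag
Ugt2b36: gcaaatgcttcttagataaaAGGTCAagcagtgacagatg
Ugt2b35: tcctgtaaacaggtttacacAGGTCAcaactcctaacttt
The half-site began 22, 39, 25 and 25 bases before the start in Ugt2b5, Ugt2b37, Ugt2b38 and Ugt2b36, and 215 bases before it in Ugt2b35. The 43 members in the table had 53 promoters, and a member was counted if any of its promoters held the motif. AGGTCA was found in 9 members, or 17.0% of member promoters. The HNF1 half-site GTTAAT was found in 10 (Ugt1a10, Ugt1a6a, Ugt2a3, Ugt3a1, Sult1a1, Sult1d1, Sult2a3, Sult2a4, Sult2a6 and Gsta3). It was in 18.9% of member promoters, against 7.10% of all promoters. The antioxidant response element TGACNNNGC was found in 3 (Gsta3, Gstm5 and Gstm7), or 5.66% of member promoters, against 12.4%. The xenobiotic response element core GCGTG was found in 7, or 17.0% of member promoters, against 32.4%. A match describes letters only.

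The genes around the enzymes were taken from 6 lists, and 0 of their measured members were called by limma in any of the 4 group comparisons or in the slope. Their counts at an unadjusted p under 0.05 in hypoglycaemic KO against wild-type livers stand against 9.94% of all genes higher and 8.93% lower. Of 22 genes that supply the cofactors, 2 were higher and 5 lower. The smallest p belonged to Chac1, which breaks down glutathione (1.56 ± 0.32, adjusted p = 0.0869), and Ggct, of the same pathway (−0.51 ± 0.13, adjusted p = 0.0915). Of 25 regulators, 7 were higher and 3 lower, led by the transcription factor Cebpb (0.62 ± 0.18, adjusted p = 0.116) and the repressor Nr0b2 (−1.26 ± 0.37, adjusted p = 0.118).

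Against the same shares of all genes (9.94% higher, 8.93% lower), 1 of 17 measured NRF2 targets was higher and 3 were lower, led by the epoxide hydrolase Ephx1 (−0.75 ± 0.28, adjusted p = 0.171) and the transporter Abcc4 (0.35 ± 0.15, adjusted p = 0.221). Of 18 measured AHR and CAR/PXR targets, 1 was higher and 4 lower, led by the cytochromes Cyp1a2 (−3.14 ± 0.60, adjusted p = 0.0685) and Cyp2b9 (−1.26 ± 0.37, adjusted p = 0.118). Of 28 genes listed as other conjugating and hydrolysing enzymes, 2 were higher and 9 lower, led by the acyl-CoA synthetase Acsm5 (−3.40 ± 0.70, adjusted p = 0.0828) and the carboxylesterase Ces3a (−1.90 ± 0.49, adjusted p = 0.0968). That list also holds Gnat1, a transducin subunit taken in by mistake. Of 18 conjugate transporters, 3 were higher and 5 lower, led by the organic anion transporter Slc22a7 (−3.04 ± 0.64, adjusted p = 0.0869).

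Markers of pericentral hepatocytes, the cells around the central vein in which many conjugating enzymes are highest, did not follow the enzymes in every comparison. Of 8 pericentral markers, 1 was higher and 5 lower at an unadjusted p under 0.05 in hypoglycaemic KO against wild-type livers, where 9.94% of all genes were higher and 8.93% lower, with a median of −0.74, and the transcription factor Tbx3 fell by 1.09 on the log2 scale (adjusted p = 0.0164, limma). In normoglycaemic KO against wild-type livers all 8 markers read lower, with a median of −0.43. The Ugt median there was 0.27 and the Gst median −0.013. The median glucose slope of the 8 markers within groups was 0.0075 per 10 mg/dl, against 0.21 for Ugt and 0.12 for Gst. The mean centred level of the pericentral markers ranged from −0.95 to 0.19 in hypoglycaemic KO, −0.14 to −0.07 in normoglycaemic KO and 0.25 to 0.75 in wild-type libraries. Of 9 granulocyte markers, 4 were higher at an unadjusted p under 0.05 (9.94% of all genes), and their mean centred level ranged from −0.11 to 0.20 in hypoglycaemic KO, −0.38 to 0.12 in normoglycaemic KO and −0.16 to 0.06 in wild-type libraries. The part of either in the values of the conjugating enzymes was not tested.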

How the data were processed

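Liver RNA of 15 pups was hybridised to 1-colour arrays. Per the file headers, the deposited intensity values (gProcessedSignal) were background-subtracted within each array by Agilent Feature Extraction 10.10, with no normalization between arrays; the deposited log2 values of the series table served as an alternative, and the submitters' processing notes name limma without saying for which step. Levels are log2 intensity minus the log2 75th percentile of 55681 non-control probes, without the 176 to 546 spots marked as uneven or outlying on each array. The number of arrays limits the precision. A model of 3 group means over 27556 genes, and one with a common glucose slope, were fitted with limma 3.58.1 in R 4.3.3 (12 residual and 1.83 prior degrees of freedom), adjusted by Benjamini-Hochberg over all genes; Python 3.11.15 with pandas 2.3.3 and matplotlib 3.10.9 drew the figures. The fitting code was tested on simulated data. The members and lists were chosen with earlier results of these data known. Values per library are given for the members with the smallest p per family in each comparison (4 in hypoglycaemic KO against wild type) and the 2 highest means; other genes named outside that rule were chosen after their values were seen. All 51 probes matched RefSeq by accession with the same symbol. The labels do not say whether the pups came from 1 litter or several, and p-values measure the spread between these pups.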

Additional observations from a re-analysis of the deposited data

Results flagged for a closer look

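Single libraries that stood apart were sought in 48 sets of 5 to 7 levels, and 2 were found. Each set was 1 described member, or the mean of a family or of all members, in 1 group. Chance gives about 1 in 20 groups. In hypoglycaemic KO replicate 2, as labelled, Ugt1a6b read 7.30, where the nearest of the other 6 hypoglycaemic KO libraries read 6.56; the same library read 0.89 for Mirg. Gsta2 read 1.08 in wild-type replicate 2, where the nearest of the other 4 wild-type libraries read 0.033; that pup had the highest glucose, 72 mg/dl, and its library was among the 3 richest in pancreas markers. The cause of either was not tested.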

How the results depend on the processing

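Each result was recomputed under 36 alternatives, and 689 of the 705 values that answer a comparison were counted as unmoved. A count of members was unmoved when equal or within 1.5 times. A family median or slope was unmoved when it shifted by less than the replicate SD of the family mean, whatever its sign. For the group medians that SD was 0.43 for Ugt, 0.37 for Sult and 0.19 for Gst. For slopes it was divided by the SD of glucose within groups. That gave limits of 0.47 for Ugt, 0.41 for Sult and 0.21 for Gst per 10 mg/dl. These limits exceed the size of the median slopes themselves (0.21, −0.018 and 0.12). A median slope that vanished therefore still counted as unmoved, and the count cannot show that the slopes held. Some group medians changed sign within their limit: the Sult median in hypoglycaemic KO against wild type was −0.027 without hypoglycaemic KO replicate 4. With array weights, 4 members were called in hypoglycaemic KO against wild type (against 1.45% of all genes lower), 13 in hypoglycaemic against normoglycaemic KO (against 3.81% lower and 3.41% higher) and 2 for the slope within groups. A trended, robust prior gave 1 for the first comparison (against 0.327% of all genes) and 2 for the slope (against 1.84%). Leaving out 1 library gave 0 to 5 called members in hypoglycaemic KO against wild type (1 without hypoglycaemic KO replicate 2, 4 without hypoglycaemic KO replicate 4, 5 without wild-type replicate 1, against 0.501%, 1.88% and 2.75% of all genes), 0 to 5 between the KO groups (5 without hypoglycaemic KO replicate 4, 2 without wild-type replicate 2, against 3.6% and 1.36%) and 0 to 6 for the slope (6 without hypoglycaemic KO replicate 7, against 3.66%). The slope gave 7 over KO arrays and 16 over all arrays without a group term. Members at an unadjusted p under 0.05 against wild type were 5 within slide 1 (all lower, against 2.89% of all genes lower and 2.52% higher). They were 16 to 25 when 1 library was left out: 16 without hypoglycaemic KO replicate 5 or wild-type replicate 2, against 15.5% and 13.7% of all genes, and 25 without wild-type replicate 1, of which 7 were higher, against 23.4%. The Ugt median between KO groups was −1.74 within slide 2 and −0.66 with the replicate number as a block. Whether the replicate numbers pair the samples was not settled. Of 11 same-number pairs, 6 had a correlation of deviations from the group means over 0.1 (range −0.176 to 0.320). Pairs of different numbers were not set beside them. The Ugt median slope was 0.039 without wild-type replicate 2 and 0.0098 without the 3 libraries richest in pancreas markers. The difference of Ugt1a6a in hypoglycaemic KO against wild type was 0.043 with array weights, 0.13 with the replicate block and −0.25 to 0.041 when 1 library was left out, and the Ugt2a1 slope was 0.0078 over all arrays without a group term. Of the values of single members, 928 kept their side of the threshold, 31 passed it under an alternative and 6 changed sign. Over all alternatives Ugt2b34 lay between −1.70 and −1.10, Gsta2 between −1.65 and −0.95, Sult1c2 between −2.92 and −1.93 and Gstm6 between −0.75 and −0.39 in hypoglycaemic KO against wild type. The causes of these moves were not tested. With 3 normoglycaemic KO libraries, small differences of that group are not resolved.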
